A study of Sus scrofa with 6 samples.

Results

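The BCL2 family and the proteins released behind it, the mitochondrial route to apoptosis, were followed through 10 genes chosen by name for their roles in it: BCL2, BCL2L1, BCL2L10, MCL1, BAX, BAK1, BID, BCL2L11, DIABLO and XIAP. They were found by NCBI gene ID and symbol among 19300 genes. Of the 10, 9 were listed in at least 1 oocyte and 5 had a mean of at least 1 FPKM, a level scaled to transcript length and sequencing depth. BCL2 was listed in none of the 6 oocytes.

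The cells were pig oocytes at the germinal vesicle stage, the arrested stage before meiotic maturation. Brilliant cresyl blue (BCB) loses its colour where glucose-6-phosphate dehydrogenase is active, as in growing oocytes, so an oocyte that stays blue is taken as fully grown. Each of 6 libraries held 1 oocyte: 3 had lost the colour (BCB-negative) and 3 had kept it (BCB-positive). All came from antral follicles of 3 to 6 mm, were chosen for at least 3 layers of intact cumulus cells, had cumulus cells and zona pellucida taken off, and were lysed without maturation culture. No animal or strain, and no age, is named for any oocyte, so each class is 1 sample of 3 cells. Values are therefore described with the standard deviation (SD) between oocytes and without a test, and that SD may hold differences between animals as well as between cells.

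Proteins of the BCL2 family act at the mitochondrial outer membrane. BAX and BAK1 form pores there, anti-apoptotic members such as BCL2, BCL2L1 (BCL-XL), MCL1 and BCL2L10 hold them back, and BH3-only proteins such as BID and BCL2L11 (BIM) tip the balance towards pore formation. Pores release cytochrome c, which starts caspase activation, and DIABLO (SMAC), which frees caspases from inhibitors such as XIAP. In oocytes the family is known for its part in the loss of germ cells before and after birth.

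Library facts touch every value below. Expected counts summed to between 7122749 and 7668881 per BCB-negative oocyte and between 7820374 and 9238987 per BCB-positive oocyte. Every BCB-positive library was thus deeper than every BCB-negative one. BCB-positive oocyte 3 stood apart from the rest: its mean Pearson correlation with the other oocytes, across genes, was 0.874, against 0.905 to 0.915. All 10 oocyte markers looked for were listed, with a mean of at least 1 FPKM each. Of 13 markers of cumulus and granulosa cells, FSHR, FOXL2, AMHR2, LHCGR, NR5A2 and HAS2 were listed in none, and INHBA alone reached a mean of 1 FPKM. Without INHBA that list summed to between 0.27 and 1.07 FPKM in the BCB-negative class and between 1.16 and 3.72 FPKM in the BCB-positive class. Markers of blood and immune cells summed to 0.11 to 1.19 and 2.93 to 4.60 FPKM, mostly through CD3E with PTPRC at 0 in 5 oocytes, and endothelial and stromal markers to 1.85 to 2.59 and 3.76 to 4.01 FPKM. These small sums were higher in the BCB-positive class, and their part in the differences below was not tested.

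Among the anti-apoptotic members, BCL2L10 (gene 100153119) dominated the oocyte. It stood at 122, 100.5 and 105 FPKM in oocytes 1, 2 and 3 of the BCB-negative class and at 182, 153 and 115 FPKM in those of the BCB-positive class. BCB-positive oocytes 1 and 2 lay above all BCB-negative oocytes, while BCB-positive oocyte 3 lay below BCB-negative oocyte 1, so the classes overlapped. The class means were 109 ± 11.6 and 149.98 ± 33.8 FPKM (SD, n = 3 oocytes each). On the log2(FPKM + 1) scale, the measure of every difference unless another is named, BCB-positive oocytes were higher by 0.44 (pooled SD 0.26), or 1.35-fold. Without BCB-positive oocyte 3 the difference was 0.62, past 1.5-fold, and the classes no longer overlapped.

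BCL2L10 rested on 2543 expected counts in the BCB-negative class and 3907 in the BCB-positive class. As CPM, counts scaled to the library total, these were 113 (exact 95% Poisson interval 109 to 118) and 155 (149.9 to 159.6). The intervals cover counting error only, which was small beside the spread between oocytes. By rank BCL2L10 lay between place 682 and place 1192 among all genes of an oocyte, whereas the next member, BCL2L1, lay between places 3183 and 6796.

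BCL2L1 (gene 397536) varied widely between oocytes and showed no shift between classes. It was at 18.7, 12.6 and 8.35 FPKM in the BCB-negative class and at 5.53, 11.7 and 30.1 FPKM in the BCB-positive class. Both the lowest and the highest oocyte were BCB-positive. The difference was 0.01 with a pooled SD of 0.88, and it ran from -0.58 (BCB-positive oocyte 3 left out) to 0.55 without BCB-positive oocyte 1. The listed transcript of BCL2L1 is 752 bases long. FPKM divides by that listed length, so levels compared between genes depend on the gene models of the files.

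MCL1 (gene 397648), a short-lived protein that binds BAK1 and BH3-only proteins, was low. Its values were 0.41, 1.35 and 1.66 FPKM in the BCB-negative class and 1.62, 0.24 and 1.78 FPKM in the BCB-positive class, from 7 to 57 counts per oocyte. The classes overlapped and differed by 0.01 (pooled SD 0.57). BCL2 (gene 100049703) had no listed read in any oocyte. The files omit genes at 0, so a gene model that was not counted would look the same. Genes whose identifiers match no current symbol, 5364 of 19300, could not be searched by name.

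BCL2L10 thus made up most of the summed FPKM of these anti-apoptotic members in each oocyte. Its share was 86.5%, 87.8% and 91.3% in the BCB-negative class and 96.2%, 92.8% and 78.2% in the BCB-positive class. The lowest share was that of BCB-positive oocyte 3, where BCL2L1 was highest, at 20.5% of the sum. The ratio of BCL2L10 to BCL2L1 ran from 3.81 in BCB-positive oocyte 3 to 32.9 in BCB-positive oocyte 1. The sum itself was 141, 114 and 115 FPKM in the BCB-negative class and 189, 165 and 146 FPKM in the BCB-positive class, and did not overlap between classes. That gap was narrow, 141 against 146 FPKM. BCL2L10 alone overlapped between classes, and the sum in BCB-positive oocyte 3 included BCL2L1 at its highest level, 30.1 FPKM.

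**Figure D1:**
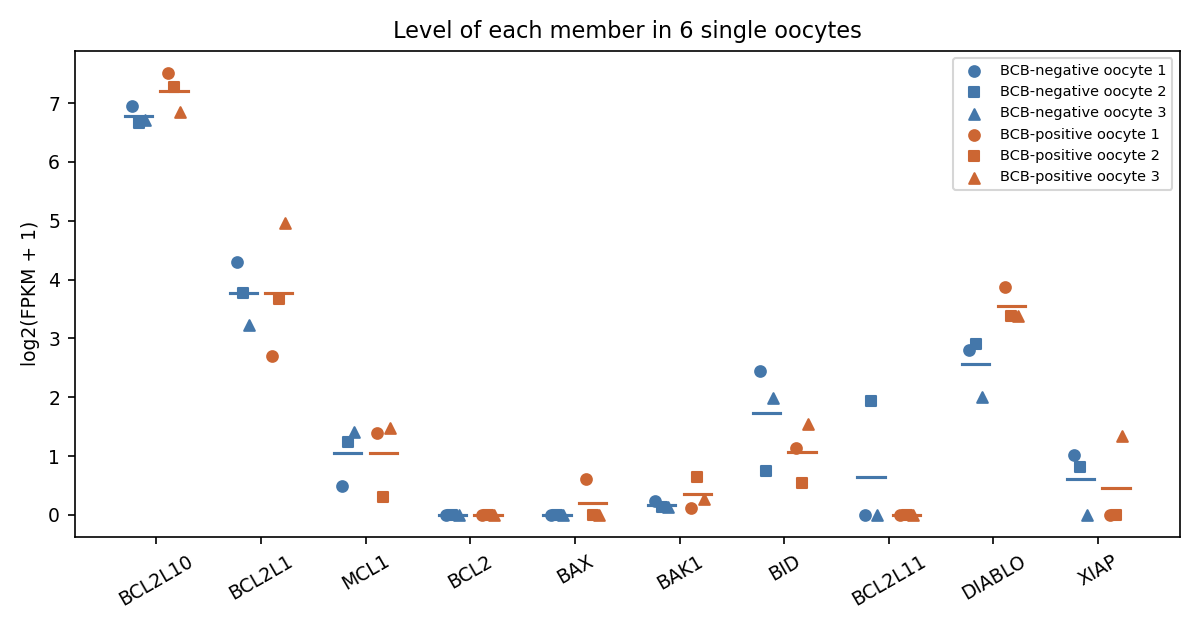
Level of each member in 6 single oocytes, as log2(FPKM + 1), with blue symbols for BCB-negative and orange for BCB-positive oocytes (circle, square and triangle for oocytes 1, 2 and 3) and a bar at the class mean. BCL2L10 lies far above the other members in every oocyte, DIABLO is the member whose classes do not overlap, and BCL2 lies at 0 throughout.

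The pore-forming members had few listed reads, and their proteins were not measured. BAX (gene 396633) was listed in BCB-positive oocyte 1 alone, at 0.53 FPKM from 5 counts. BAK1 (gene 397543) was listed in all 6 oocytes, at 0.18, 0.10 and 0.10 FPKM in the BCB-negative class and at 0.09, 0.57 and 0.20 FPKM in the BCB-positive class. Its counts ran from 2 to 12.8 per oocyte, and the classes overlapped. BAK1 differed by 0.17 (pooled SD 0.20). Fractional parts in the BAK1 counts of 5 oocytes show that some of its few reads were divided with other features, and no single gene completed them in more than 2 oocytes. In the Sscrofa11.1 annotation BAK1 overlaps LOC102162214, which reached 0.77 FPKM, above the highest BAK1 value. Its part in the BAK1 reads was not tested. Together, BAX and BAK1 had 0.18, 0.10 and 0.10 FPKM in the BCB-negative class and 0.62, 0.57 and 0.20 FPKM in the BCB-positive class. That sum did not overlap between classes, narrowly so at 0.18 against 0.20 FPKM, and it rested on at most 12.8 counts in an oocyte.

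The BH3-only members rested on few reads. BID (gene 594852), which links death receptors to mitochondria once cut by caspase-8, was at 4.47, 0.67 and 2.96 FPKM in the BCB-negative class. In the BCB-positive class it was at 1.20, 0.46 and 1.90 FPKM. The classes overlapped because BCB-negative oocyte 2 was low. BID rested on 62 counts (exact 95% Poisson interval 47.5 to 79.5) in the BCB-negative class and 34 (23.5 to 47.5) in the BCB-positive class. The log2 difference was -0.65 (pooled SD 0.72), past 1.5-fold in size but smaller than the spread between oocytes. Leaving out an oocyte took it under 1.5-fold for BCB-negative oocyte 1 (-0.29), BCB-negative oocyte 3 (-0.52) and BCB-positive oocyte 2 (-0.39). Leaving out BCB-negative oocyte 2 gave -1.14, and the classes no longer overlapped.

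BCL2L11 (gene 396632) was listed in BCB-negative oocyte 2 alone, at 2.82 FPKM from 10.5 counts. That count, 10.46, was fractional, so reads had been divided with another feature, and 54 genes completed it equally well. The listed transcript is 552 bases long, so few reads weigh more in its FPKM. The BCL2L11 difference of -0.64 (pooled SD 0.79) is that oocyte, and was 0 without it. In the Sscrofa11.1 annotation, used for names and neighbours only, BCL2L11 overlaps ACOXL, which was at most 0.40 FPKM. The 4 pro-apoptotic family members summed to 4.65, 3.59 and 3.06 FPKM in the BCB-negative class and to 1.82, 1.03 and 2.10 FPKM in the BCB-positive class. Without BCL2L11 the sum in BCB-negative oocyte 2 was 0.77 FPKM, and the classes overlapped. In every oocyte this sum of 4 members lay far below the anti-apoptotic sum. It leaves out BAD, a BH3-only gene outside the member list, which alone was at 15.2 to 22.6 FPKM.

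**Figure D2:**
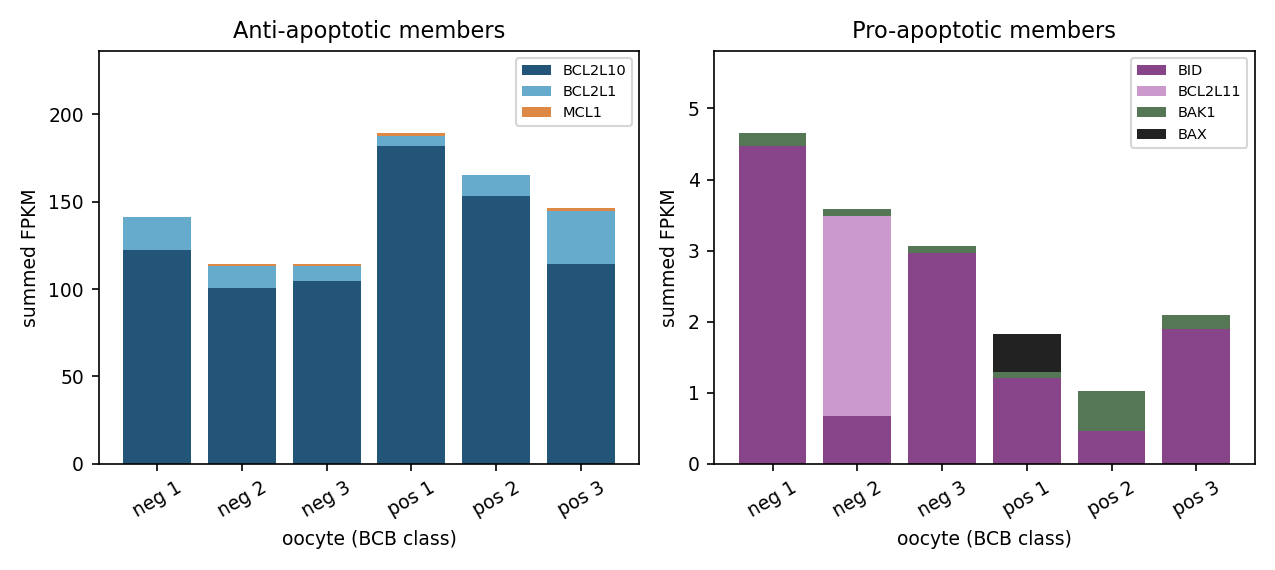
Summed FPKM of the anti-apoptotic members (left) and the pro-apoptotic members (right) in each oocyte, stacked by gene, with separate vertical scales starting at 0. BCL2L10 fills most of each left bar, and the right bars stay at or below 4.65 FPKM, with BCL2L11 making up most of 1 of them.

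DIABLO (gene 100155744), the antagonist of caspase inhibitors that leaves mitochondria with cytochrome c, was the member with the clearest class difference. It stood at 5.98, 6.48 and 3.01 FPKM in the BCB-negative class and at 13.7, 9.45 and 9.36 FPKM in the BCB-positive class. The classes did not overlap, with a gap from 6.48 to 9.36 FPKM. The class means were 5.16 ± 1.88 and 10.8 ± 2.47 FPKM (SD, n = 3 oocytes each). The log2 difference was 0.98 (pooled SD 0.40), or 1.97-fold. Leaving out BCB-positive oocyte 3 gave 1.06, and leaving out BCB-negative oocyte 3, the lowest, gave 0.69. Counts were 149.6 (exact 95% Poisson interval 127 to 176) in the BCB-negative and 348 (312 to 387) in the BCB-positive class, or 6.68 and 13.8 CPM.

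Part of the reads of DIABLO had been divided with another gene model. In the 5 oocytes where the expected count of DIABLO was fractional, gene 100739806 held a fractional count that completed it to a whole number, within 0.015. Gene 100739806 was the only gene to do so, and no other gene completed more than 2 of the 5. It has no symbol in the reference table and a listed transcript of 615 bases. In BCB-negative oocytes 1, 2 and 3 the pair held 57.6 and 21.4, 64.0 and 19.0, and 28 and 0 counts for DIABLO and gene 100739806. In BCB-positive oocytes 1, 2 and 3 it held 138.7 and 51.3, 98.5 and 26.5, and 111 and 36.8 counts. Gene 100739806 thus took 21.2% to 27.1% of the pair's reads where it was listed, and none in BCB-negative oocyte 3.

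As with DIABLO alone, the classes did not overlap for the pair together. Its counts were 79, 83 and 28 in the BCB-negative class and 190, 125 and 148 in the BCB-positive class. In CPM the pair averaged 8.37 ± 3.85 and 18.5 ± 5.01 (SD, n = 3 oocytes each). On the log2(CPM + 1) scale the pair differed by 1.13 (pooled SD 0.56), and by 0.72 without BCB-negative oocyte 3. Summed FPKM was 11.1, 11.0 and 3.01 in the BCB-negative class and 25.5, 15.4 and 16.45 in the BCB-positive class, a log2 difference of 1.23 (pooled SD 0.70). Without BCB-negative oocyte 3 the difference in summed FPKM was 0.70. Gene 100739806 is shorter than DIABLO, so the same reads weigh more in its FPKM, and CPM of the pair is the measure that does not depend on how they were divided.

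**Figure D3:**
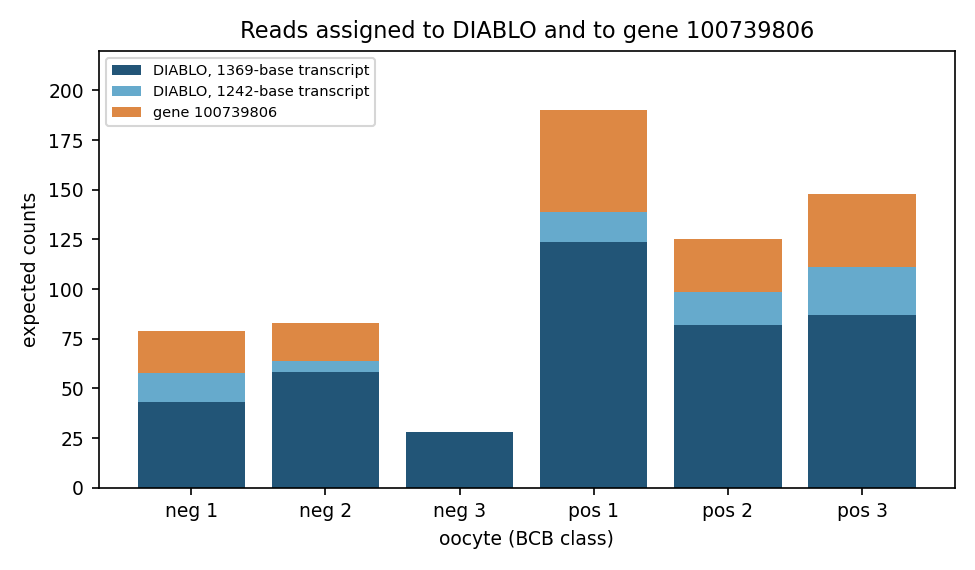
Expected counts per oocyte for the 2 listed transcripts of DIABLO and for gene 100739806, stacked from 0. The stacked totals are whole numbers, between 28 and 83 in the BCB-negative class and between 125 and 190 in the BCB-positive class, and BCB-negative oocyte 3 has a single layer.

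XIAP (gene 100037300), the caspase inhibitor that DIABLO binds, was listed in 3 oocytes. It was at 1.02, 0.76 and 0 FPKM in the BCB-negative class and at 0, 0 and 1.54 FPKM in the BCB-positive class. Oocytes with and without listed reads occurred in both classes. The difference was -0.16 (pooled SD 0.67), and -0.61 without BCB-positive oocyte 3. XIAP held 35 counts in the BCB-negative and 37 in the BCB-positive class, all of the latter from BCB-positive oocyte 3. In the 3 oocytes where both were listed, DIABLO exceeded XIAP by 5.86-fold, 8.53-fold and 6.08-fold in FPKM.

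Ordered by mean FPKM over the 6 oocytes, the members ran BCL2L10 (129.5), BCL2L1 (14.5), DIABLO (7.995), BID (1.94), MCL1 (1.18), XIAP (0.55), BCL2L11 (0.47), BAK1 (0.21) and BAX (0.09). The step from BCL2L10 to BCL2L1 was the one at which the ranges over oocytes did not overlap. Every later pair of neighbours overlapped in range. Within single oocytes, BCL2L1 lay above DIABLO in 5 of 6, DIABLO above BID in 6 of 6, and BID above MCL1 in 4 of 6. The order below BID is therefore not settled by these oocytes.

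Of the 10 members, DIABLO alone was at least 1.5-fold higher in the BCB-positive class, and BID and BCL2L11 were at least 1.5-fold lower. Among the 11493 genes of the series averaging at least 1 FPKM, 18.9% were past 1.5-fold upwards and 9.46% past 1.5-fold downwards. Classes without overlap occurred for 1 of the 10 members, DIABLO, against 7.44% of all genes with BCB-positive oocytes above and 4.03% with them below. Without that filter, which 5 of the members did not pass, the shares of all 19300 genes were 13.7% higher, 7.02% lower, 5.56% above and 3.02% below. With 10 members, these counts are given as a description. The median difference of the 9 listed members was 0.01, as was that of the 5 averaging at least 1 FPKM. For the 11493 genes past the same filter it was 0.11. DIABLO itself was at least 1.5-fold higher under each of 12 alternatives of scaling, pseudocount, averaging, pooling with gene 100739806 or leaving out an oocyte, and BCL2L10 was above 0 under each of its 11.

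**Figure D4:**
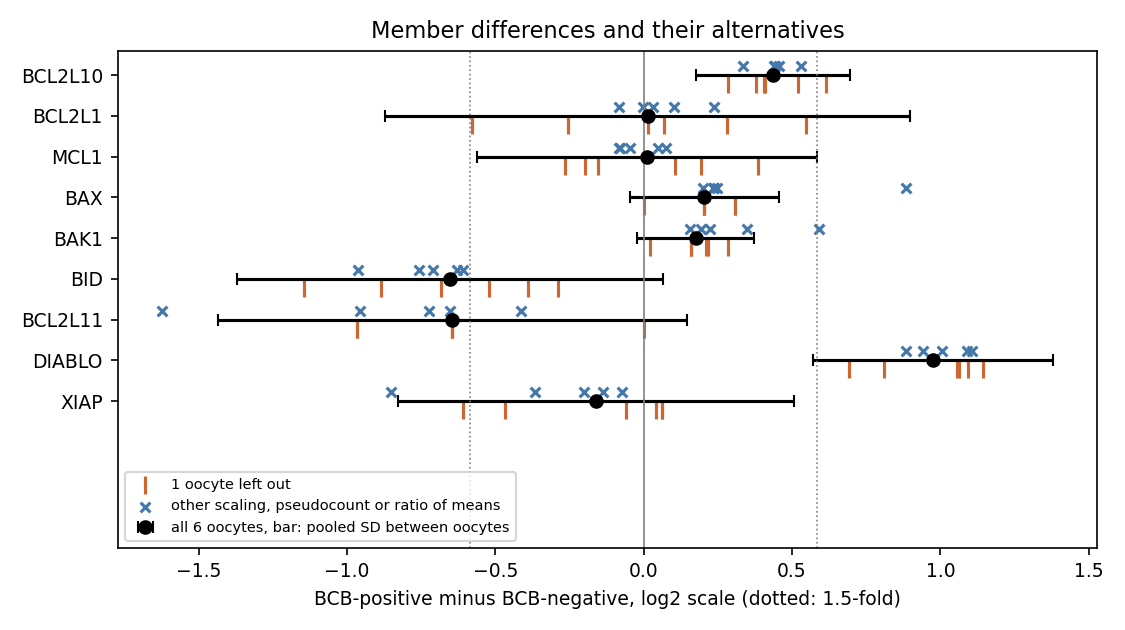
Log2 difference, BCB-positive minus BCB-negative, for the 9 listed members: black points with bars of 1 pooled SD between oocytes, orange ticks with 1 oocyte left out, blue crosses for other scalings, the smaller pseudocount and the ratio of class means. DIABLO stays right of the 1.5-fold line at all ticks and crosses, and BCL2L1, MCL1 and XIAP lie on both sides of 0.

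Transcript assignments added little, since most members had a single listed transcript. DIABLO had 2, of 1369 and 1242 bases. The shorter one held 26.9%, 10.0% and 0% of the gene's FPKM in the BCB-negative class and 12.0%, 18.5% and 23.4% in the BCB-positive class. These shares overlapped between classes, and the longer transcript held the larger share in every oocyte. BID had 3 listed transcripts, and the 1228-base one held 66.6% to 100% in 5 oocytes. In BCB-positive oocyte 2 all 4 counts of BID went to the 1141-base transcript instead. MCL1 had 4 listed transcripts. Its reads went wholly to the 3942-base transcript in BCB-negative oocytes 1 and 2 and wholly to the 3694-base one in BCB-negative oocyte 3 and BCB-positive oocyte 2. With 7 to 57 counts per oocyte, such all-or-none shares describe the assignment of few reads.

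Beyond the members, 61 further genes of the pathway were looked up. Of these, 42 were listed and 34 had a mean of at least 1 FPKM. Among the 34, 7 (20.6%) were 1.5-fold or more higher in the BCB-positive class and 3 (8.82%) 1.5-fold or more lower, both near the shares of all genes given above. Their median difference was 0.02. The classes did not overlap in 7 genes, with the BCB-positive class above in 5 (14.7%) and below in 2 (5.88%), against 7.44% and 4.03% of all genes.

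Relatives of the family included more abundant genes than most members. BAD, a BH3-only protein governed by phosphorylation, was steady, between 15.2 and 22.6 FPKM in all oocytes. BOK, BMF, BBC3, HRK, BIK, BCL2A1 and BCL2L2 were not listed. BNIP3, an outer membrane protein of mitophagy and cell death, was the most abundant divergent relative, at 152, 96.8 and 101 FPKM in the BCB-negative class and 131, 86.6 and 51.8 FPKM in the BCB-positive class. The classes overlapped. BCL2L12 was at 7.12, 14.7 and 5.51 FPKM in the BCB-negative class and 5.01, 3.79 and 3.89 FPKM in the BCB-positive class. It did not overlap and was lower by 0.85 on the log2 scale (pooled SD 0.49), and by 0.48 without BCB-negative oocyte 2.

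Proteins that act at or after release were mixed. CYCS, cytochrome c, was between 119 and 238 FPKM in all oocytes, with a difference of 0.22 (pooled SD 0.41). ENDOG, a mitochondrial nuclease, was at 17.9, 15.3 and 45.0 FPKM in the BCB-negative class and 16.0, 6.46 and 23.8 FPKM in the BCB-positive class. The difference of ENDOG was -0.73 (pooled SD 0.85), -0.27 without BCB-negative oocyte 3 and -0.24 without BCB-positive oocyte 2. HTRA2, which like DIABLO antagonises XIAP, was at 2.52, 2.19 and 0 FPKM in the BCB-negative class. In the BCB-positive class it was at 2.57, 6.38 and 2.29 FPKM, so that, unlike DIABLO, the classes overlapped. HTRA2 differed by 0.98 (pooled SD 0.85), and by 0.40 without BCB-negative oocyte 3. DFFA, the inhibitor of the apoptotic nuclease DFFB, differed by -0.67 (pooled SD 0.78) and by -0.06 without BCB-negative oocyte 2.

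CASP2 and CASP6 were the caspases listed in every oocyte. CASP2 was the most abundant, between 14.2 and 22.6 FPKM, with a difference of 0.08 (pooled SD 0.34). CASP9 was at most 0.23 FPKM, and CASP8 was not listed. APAF1, the scaffold of the apoptosome, was between 0.70 and 4.60 FPKM. Among inhibitors of apoptosis, BIRC6 was the most abundant, between 0.49 and 1.88 FPKM, and BIRC2, BIRC5 and BIRC7 were not listed.

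Of 13 genes listed as partners of the family, in membranes or elsewhere in the cell, 5 (38.5%) were at least 1.5-fold higher. The share of all genes was 18.9%, and the median difference of the 13 was 0.02. MARCHF5, a ubiquitin ligase of the outer membrane that governs MCL1 and mitochondrial division (MARCH5 in the reference table), was at 6.11, 5.43 and 5.37 FPKM in the BCB-negative class. In the BCB-positive class it was at 10.23, 13.9 and 16.5 FPKM. The classes lay well apart, at 5.64 ± 0.41 and 13.5 ± 3.13 FPKM (SD, n = 3 oocytes each). The log2 difference was 1.11 (pooled SD 0.24), and ran from 0.97 to 1.29 over 10 alternatives.

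VDAC2, the channel that holds BAK1 at the outer membrane, was at 12.1, 5.45 and 3.16 FPKM in the BCB-negative class and 16.7, 7.32 and 19.3 FPKM in the BCB-positive class. VDAC2 overlapped between classes, with a difference of 1.03 (pooled SD 0.77). VDAC1 and OPA1 did not overlap, at 0.70 and 1.16, but BCB-positive oocyte 3 carried much of both: without it they were at 0.38 and 0.56. PPIF, cyclophilin D of the matrix, differed by 0.68 (pooled SD 1.04) and by -0.09 without BCB-negative oocyte 1. OMA1, the protease that cuts OPA1, was just under 1.5-fold at 0.57 (pooled SD 0.33), with no overlap. TMBIM6, an inhibitor of BAX-driven death in the endoplasmic reticulum, was the most abundant partner, between 205 and 246 FPKM in all oocytes, and BAG6 was lower by 0.44 (pooled SD 0.08), with no overlap.

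Upstream of the mitochondria, TP63, a transcription factor that guards oocytes and drives genes for BH3-only proteins, was at 6.21, 7.27 and 2.72 FPKM in the BCB-negative class. In the BCB-positive class it was at 9.39, 9.24 and 9.51 FPKM. The classes did not overlap. The difference was 0.78 (pooled SD 0.44), and 0.43 without BCB-negative oocyte 3, the oocyte in which DIABLO was lowest too. RIPK1, a kinase of death receptor signalling, was the most abundant gene of this group, between 8.33 and 12.7 FPKM. TP73 and FAS were not listed. PMAIP1, a BH3-only gene, was listed in 2 oocytes, BCB-negative oocyte 2 at 1.03 FPKM and BCB-positive oocyte 3 at 2.32 FPKM.

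**Figure D5:**
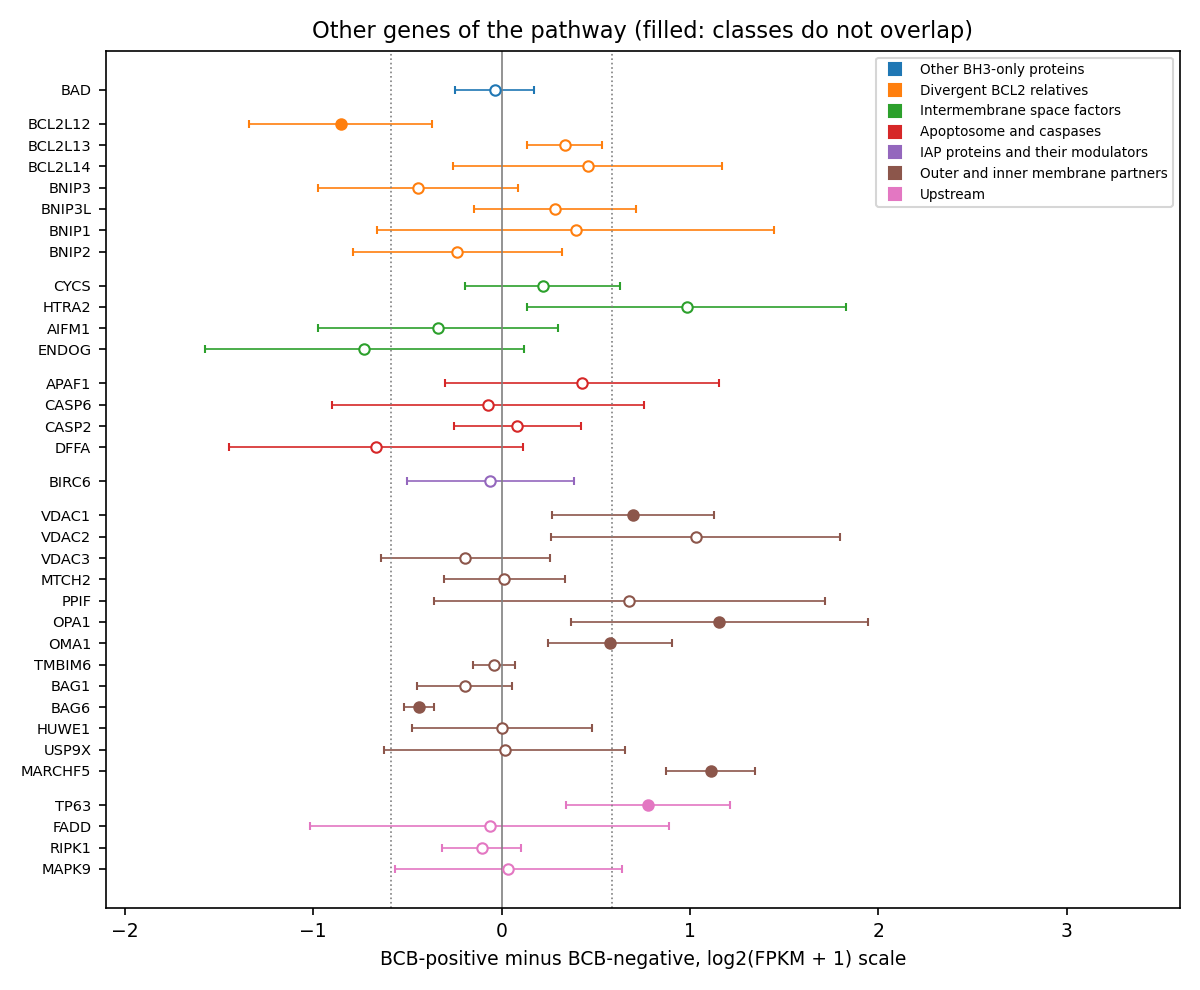
Log2 difference, BCB-positive minus BCB-negative, of the 34 further pathway genes averaging at least 1 FPKM, coloured by group, with bars of 1 pooled SD between oocytes; filled points mark genes whose classes do not overlap, dotted lines 1.5-fold. MARCHF5 has the second largest difference, 1.11 after 1.16 for OPA1, with a much shorter bar, and BCL2L12 is the lowest point.

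The genes whose pattern over the 6 oocytes was most like that of a member were found by Pearson correlation of log2(FPKM + 1), among genes averaging at least 5 FPKM. For BCL2L10 the nearest named genes were STK35 (0.97), TMEM131 (0.96) and NAA50 (0.96), and 9 of 7278 genes reached 0.95. For DIABLO they were MIGA1 (0.99), FYTTD1 (0.98) and TP53BP2 (0.98), and 10 of 7278 genes reached 0.95. The 6 points share library and depth effects, so these lists are a description.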

How the data were processed

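Single pig oocytes were sequenced from cDNA primed with poly(dT) of 24 nt, per the labels' protocols, which name no molecular identifiers. BWA, Cufflinks, RSEM and the build Sscrofa10.2 are named, per the submitters' processing notes, without roles or versions. Expected counts were deposited as estimates that can divide reads between genes. FPKM values were deposited by the authors, scaled to length and depth and rounded to 2 decimals. Lengths of genes and transcripts, also deposited, were used only to tell models apart. A gene missing from a file was set to 0.

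Symbols came from a table of Sscrofa11.1, which matched 13936 of 19300 gene IDs. Its coordinates served only to find genes that overlap a member, and none is printed; no sequences were used. Differences, unless another measure is named, are those of mean log2(FPKM + 1), a scale that understates the differences of low genes. Sizes were read against 1.5-fold and against all genes averaging at least 1 FPKM. Named pathway genes are those past 1.5-fold with a mean of at least 5 FPKM and the most abundant of each group; HTRA2, DFFA, OMA1, BAG6, CASP6, CASP9, APAF1, PMAIP1 and unlisted genes were named after their values were seen. Some genes of the lists are not reported here. The members and lists were chosen with earlier results of these data known. Poisson intervals used counts rounded to whole numbers. The calculation of differences was tested on simulated data. Python 3.11.15, pandas 2.3.3 and scipy 1.17.1 were used.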

Additional observations from a re-analysis of the deposited data

How the results depend on the processing

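No paired analysis was possible because the numbers of the oocytes name no shared animal or day and no test was made. With a pseudocount of 0.1 FPKM 3 members, not 1, were at least 1.5-fold higher, BAX and BAK1 joining on few counts. At that pseudocount 3 members, not 2, were at least 1.5-fold lower, XIAP joining at -0.85. With CPM from the expected counts 1 member, not 2, was at least 1.5-fold lower, and among members with a mean of at least 5 FPKM 0 were. At 2-fold 0 members were higher and 0 lower. With FPKM rescaled to a common sum, BCL2L10 joined DIABLO, making 2 members with BCB-positive oocytes above. Leaving out each oocyte in turn gave 1 to 2 members higher, 1 to 3 lower, 1 to 2 with BCB-positive oocytes above, 0 to 1 with them below and 1 to 2 both 1.5-fold apart and without overlap. For the pathway it gave 5 to 10 genes higher and 1 to 5 lower, with 1 lower without BCB-negative oocyte 2 and 5 without BCB-positive oocyte 1. Over the oocytes left out, the difference of BCL2L11 ran from -0.97 to 0 (without BCB-negative oocyte 2) and that of PPIF from -0.089 (without BCB-negative oocyte 1) to 1.32; BCL2L11 has a single oocyte behind it, and the cause for PPIF was not tested. The pooling of DIABLO with gene 100739806, the pathway filter at 5 FPKM and the count of members both apart in size and without overlap were chosen after seeing the data. The median difference of all genes averaging at least 1 FPKM was 0.02 with size factors and 0.19 with a common sum. Members under 1 FPKM rest on at most 37 counts per oocyte, which limits the precision of their differences.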
